A study of Mus musculus with 2 samples.

Results

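Gfi1 and its paralog Gfi1b, together with 5 genes for proteins that GFI1 works with, Kdm1a, Rcor1, Hdac1, Hdac2 and Ehmt2, were followed through the cell types of the mouse lung. These 7 genes were chosen by name, for their known place in one repressor machinery, out of the 33696 genes of the deposited matrices, and all 7 were found there (Gfi1 is ENSMUSG00000029275, Gfi1b ENSMUSG00000026815, Kdm1a ENSMUSG00000036940, Rcor1 ENSMUSG00000037896, Hdac1 ENSMUSG00000028800, Hdac2 ENSMUSG00000019777 and Ehmt2 ENSMUSG00000013787). The data came from 2 single-cell RNA libraries of live-sorted lung cells from adult mice on a C57BL6/J background: 1 labelled GFI1 KO, from a mouse with a germline loss of GFI1, and 1 labelled GFI1 WT. A germline loss touches every cell type of the body, so that the cells compared here also developed in different surroundings. The study's methods speak of 2 samples per genotype, of which 1 per genotype was analysed here, and the labels name mouse 1 for each library. No value therefore has a spread between mice, no p-value was computed, and genotype, mouse and library cannot be told apart.

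GFI1 and GFI1B are zinc finger proteins that bind DNA around the letters AATC and silence the genes they sit on. A short SNAG domain at their amino end recruits KDM1A, also called LSD1, a demethylase that strips active marks from histone H3, together with its scaffold RCOR1, also called CoREST, and the histone deacetylases HDAC1 and HDAC2. GFI1 can also bring EHMT2, also called G9a, which writes a repressive mark on histone H3. GFI1 is best known in lymphoid cells, blood stem cells and developing neutrophils, GFI1B in red cell and megakaryocyte precursors, and each factor is known to repress its own gene and that of its paralog.

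Because of this reported self-repression, the promoter windows of both factors were searched for the GFI1 core. RefSeq windows of 250 bases before to 50 bases after the start of transcription (build GRCm38.p6, another build than the GRCm39 of the counts) were found for 6 of the 7 genes. Hdac1 had none. The windows of Gfi1 (chr5:107725756-107726055, minus strand) and Gfi1b (chr2:28621933-28622232, minus strand) are shown from 5′ to 3′ with every AATC, or GATT on the opposite strand, in capitals.
Gfi1: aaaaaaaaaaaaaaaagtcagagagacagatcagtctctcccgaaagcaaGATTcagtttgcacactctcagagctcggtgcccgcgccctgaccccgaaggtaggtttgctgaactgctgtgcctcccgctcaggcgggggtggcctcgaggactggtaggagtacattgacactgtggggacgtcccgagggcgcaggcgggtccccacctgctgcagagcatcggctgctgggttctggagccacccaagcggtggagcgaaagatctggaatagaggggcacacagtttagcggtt
Gfi1b: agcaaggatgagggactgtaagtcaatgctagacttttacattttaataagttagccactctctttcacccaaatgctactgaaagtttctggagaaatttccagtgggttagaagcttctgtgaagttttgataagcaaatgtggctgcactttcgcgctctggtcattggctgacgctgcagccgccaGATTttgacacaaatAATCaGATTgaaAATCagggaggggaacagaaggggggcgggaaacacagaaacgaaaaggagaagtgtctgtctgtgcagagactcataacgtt
The Gfi1 window held the core 1 time and the Gfi1b window 4 times, while a second Gfi1 window, at chr5:107724294-107724593, held it 0 times. The core is short and common, since 73.1% of the 32851 windows of this length had it on either strand. The longer form AAATCA, which overlaps the core, was in 14.0% of all windows, 1 time in that of Gfi1b and 0 times in both of Gfi1. The full form TAAATCAC was in 0.578% of all windows and in none of the windows of the 6 genes. Among the partners the core occurred 1 time in the window of Kdm1a and 0 times in those of Rcor1, Hdac2 and Ehmt2. Such matches describe letters and say nothing on binding in these cells.

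After the study's filters on cells, 10495 cells labelled GFI1 KO and 19342 labelled GFI1 WT remained, with a median of 11076 and 6217 unique molecular identifiers (UMIs, counted RNA molecules) per cell. Cells were assigned to a class by a gate on marker genes: at least 3 markers of the class had to be seen, and at least 2 more than of any other class. The gate placed 87.6% and 90.9% of the cells in 16 of 22 classes, and every marker of a class was higher there than in the other cells of that library, apart from 1 of 8 in the 5 group 2 innate lymphoid cells (ILC2) labelled GFI1 KO. Red cell precursors, megakaryocytes, mast cells, eosinophils, granule-rich myeloid precursors and mesothelial cells gave no cell. The class mix differed: classical monocytes numbered 4020 labelled GFI1 KO against 290 labelled GFI1 WT, neutrophils 18 against 1504, and 8 classes had at least 50 cells in both libraries. Both libraries shared 74 cell barcodes. A level is given as UMIs of the gene per 1000000 UMIs of the class (CPM), with a 95% interval that covers counting error only.

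The targeted gene itself was not lower in the library labelled GFI1 KO. Gfi1 gave 340 UMIs there, or 3.60 CPM (3.23 to 4.0), while that labelled GFI1 WT gave 470 UMIs, or 3.46 CPM (3.16 to 3.79). The 3′ tags counted here do not show which part of the gene was deleted, so that the Gfi1 level is no check of the genotype, and each library goes by its label. The like totals came from different cells. Lymphoid cells held 87.2% of the Gfi1 UMIs in the library labelled GFI1 WT but 53.2% in that labelled GFI1 KO, while myeloid cells held 2.98% and 33.5%.

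**Figure D1:**
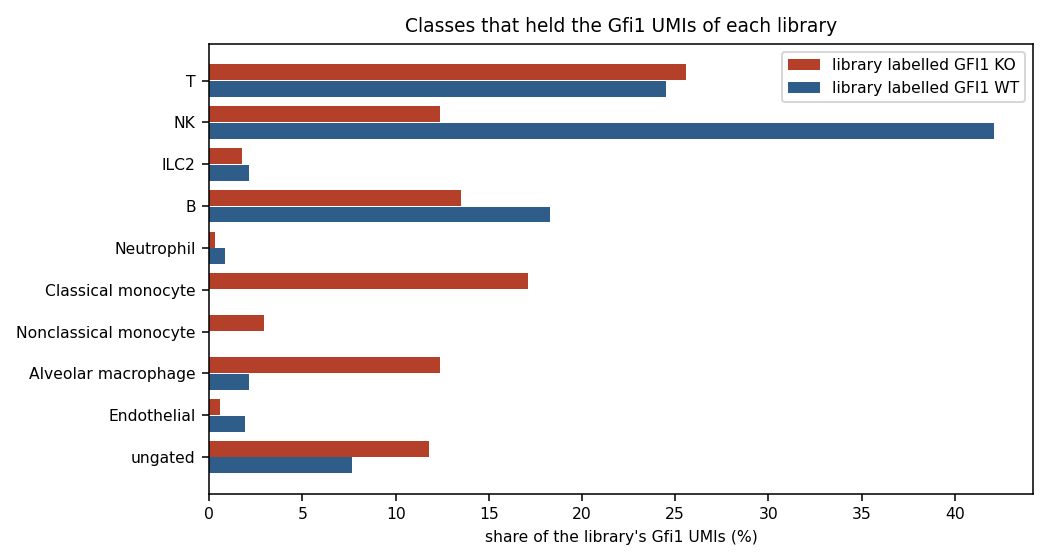
Share of all Gfi1 UMIs of a library, in percent, held by the larger classes and by ungated cells, with 1 bar per library. NK cells held 42.1% under the GFI1 WT label, and classical monocytes held 17.1% under the GFI1 KO label against 0 UMIs under the GFI1 WT label.

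Among lymphoid cells labelled GFI1 WT, Gfi1 was highest in ILC2, NK cells and γδ-type T cells. ILC2, tissue cells that make type 2 cytokines, had 29.9 CPM (14.3 to 54.9; 10 UMIs in 80 cells), natural killer (NK) cells 23.9 CPM (20.7 to 27.5) and γδ-type T cells, which carried a Trdc UMI, 22.3 CPM (10.2 to 42.3). These 3 levels overlapped within their intervals. CD8-type T cells followed with 12 CPM (9.23 to 15.2), apart from NK cells above and B cells below but overlapping with ILC2 and γδ-type T cells. B cells had 6.44 CPM (5.15 to 7.95) and CD4-type T cells 5.88 CPM (3.36 to 9.55), which overlapped. Neutrophils had 0.814 CPM from 4 UMIs, all of them in cells called doublets, since 0 UMIs remained without those.

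Gfi1 was higher under the GFI1 KO label in T and B cells, while in NK cells the interval included 1. T cells had 24.8 CPM (19.9 to 30.6; 87 UMIs in 723 cells) against 10.3 CPM (8.47 to 12.3; 115 UMIs in 2353 cells), a ratio of 2.42 (1.81 to 3.22). B cells had 14.4 CPM (10.5 to 19.2) against 6.44 CPM, a ratio of 2.23 (1.53 to 3.23). In NK cells the levels were 32.2 CPM (23.2 to 43.6) and 23.9 CPM, a ratio of 1.35 (0.943 to 1.89). For comparison, 10.1% of 11139 genes tested in T cells, 4.86% of 11225 in B cells and 16% of 10321 in NK cells were at least 1.5-fold higher under the GFI1 KO label. At least 2-fold higher were 3.95% of genes in T cells and 1.49% in B cells. Gains of either size were thus rarer over all genes in B cells than in T cells.

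The T cell subsets gave different ratios. A T cell was put in a subset where UMIs of Cd4 alone, of Cd8a or Cd8b1 alone, or of Trdc alone were seen. The other T cells were in no subset. Of the 87 Gfi1 UMIs of T cells labelled GFI1 KO, CD4-type, CD8-type and γδ-type T cells held only 18, 31 and 6. The rest lay in T cells of no subset, where a missing Cd4 UMI does not show that the cell lacked CD4. CD4-type T cells had 37.7 CPM (22.3 to 59.6) from 18 UMIs in 104 cells labelled GFI1 KO. Those labelled GFI1 WT had 5.88 CPM from 16 UMIs in 541 cells, a ratio of 6.41 (3.09 to 13.4). Of all genes, 11.8% were at least 1.5-fold and 3.64% at least 2-fold higher in this subset. Cells with a UMI of Foxp3, the factor of regulatory T cells, made up 14 of the 104 and 33 of the 541 cells. Without them the ratio was 5.11 (2.26 to 11.3), at 33.5 against 6.57 CPM. Other genes also differed in CD4-type T cells, such as Maf at 645 against 180 CPM and S1pr1 at 507 against 734 CPM. Whether this subset held like cells in both libraries was not tested. In CD8-type T cells the levels were 16.5 and 12 CPM with a ratio of 1.38 (0.869 to 2.15), where 9.85% of genes were at least 1.5-fold higher. In γδ-type T cells they were 14.3 CPM from 6 UMIs and 22.3 CPM from 9 UMIs, a ratio of 0.643 whose interval ran from 0.188 to 2.02. With so few cells of that kind, 23.3% of genes were at least 1.5-fold higher and 23.6% at least 1.5-fold lower. Whether the subsets' ratios differ from each other was not tested. ILC2 had 341 CPM from only 6 UMIs in 5 cells labelled GFI1 KO, a ratio of 11.4 (3.41 to 34.7) that rests on these 5 cells.

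**Figure D2:**
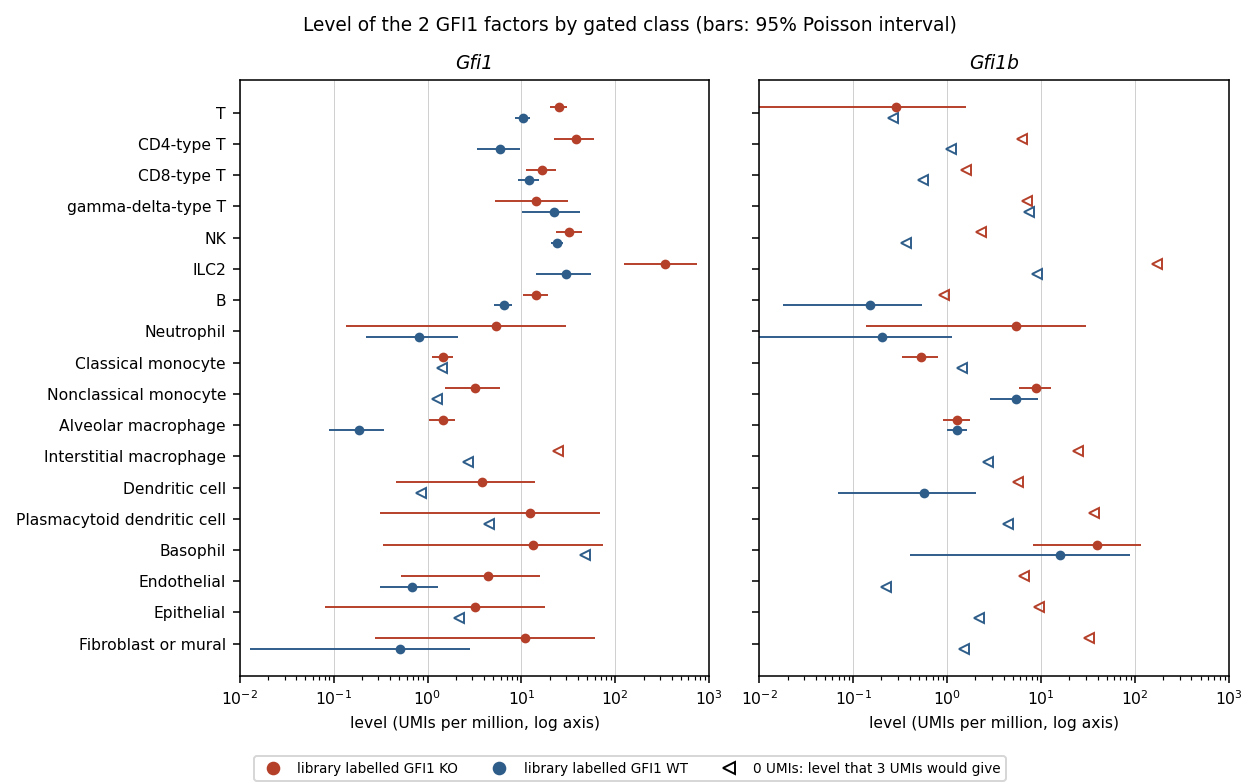
Level of Gfi1 (left) and Gfi1b (right) in CPM on a log axis by gated class, with 1 point per library, bars for the 95% Poisson interval and an open triangle where 0 UMIs were seen. Gfi1 peaks in lymphoid classes and lies higher under the GFI1 KO label in T, B and CD4-type T cells and alveolar macrophages, whereas Gfi1b appears in basophils, nonclassical monocytes and alveolar macrophages, the last with 37 and 68 UMIs.

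The share of cells with a Gfi1 UMI rests on nearly the same counts as the level and is no separate support. The 87 Gfi1 UMIs of T cells labelled GFI1 KO lay in 77 cells, and the 115 labelled GFI1 WT in 104 cells. After each cell was thinned to 1500 UMIs, a Gfi1 UMI was left in 3.05% of GFI1 KO-labelled T cells (1.92 to 4.58) and in 1.28% of GFI1 WT-labelled ones (0.864 to 1.82), against 10.7% and 4.42% before thinning. Of B cells, 1.28% (0.661 to 2.22) and 0.468% (0.262 to 0.771) held one after thinning, intervals that overlapped (4.32% and 2.02% before). Of NK cells, 3.51% (1.53 to 6.80) and 3.0% (2.31 to 3.84) did, which also overlapped (15% and 8.96% before). Of alveolar macrophages, 0.200% (0.0651 to 0.467) and 0.0237% (0.000601 to 0.132) did, from 5 cells and 1 cell. These intervals overlapped too (1.48% and 0.237% before). In endothelial cells labelled GFI1 WT, which line vessels and should lack the gene, 0.0425% held a Gfi1 UMI after thinning (0.323% before). Median depth was 6462 and 6095 UMIs for T cells and 5074 for these endothelial cells.

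In myeloid cells Gfi1 was near the detection limit under the GFI1 WT label and low but measured under the GFI1 KO label. Alveolar macrophages, the resident phagocytes of the airspaces, had 1.45 CPM (1.04 to 1.96; 42 UMIs in 2495 cells) labelled GFI1 KO and 0.188 CPM (0.0900 to 0.345; 10 UMIs in 4217 cells) labelled GFI1 WT. Their ratio was 7.72 (3.81 to 17.3), while 1.47% of 12943 genes in this class were at least 1.5-fold and 0.502% at least 2-fold higher. Classical monocytes had 1.46 CPM (1.11 to 1.88) from 58 UMIs against 0 UMIs in 290 cells, where 3 UMIs would have meant 1.44 CPM, so that no difference was detectable at that depth. Nonclassical monocytes, which patrol the vessel wall, had 3.24 CPM (1.55 to 5.95) from 10 UMIs against 0 UMIs, 2.59 times the level that 3 UMIs would give, and the lower limit of the ratio was 1.74. Dendritic cells had 2 UMIs against 0.

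Free RNA from lymphocytes and doublets can bring lymphoid UMIs into myeloid cells, and their markers were measured in the same classes. Of 8 T, 7 NK and 8 B cell markers, all but 1 NK marker had UMIs in alveolar macrophages labelled GFI1 KO and all had under the GFI1 WT label. The summed markers of T, NK and B cells stood at 12.6, 5.07 and 41.3 CPM in alveolar macrophages labelled GFI1 KO and at 20.2, 34.2 and 65.9 CPM in those labelled GFI1 WT. The markers were also scaled by the ratio of Gfi1 to markers in T, NK and B cells of the library. This gave 3.78 Gfi1 UMIs for alveolar macrophages labelled GFI1 KO, where 42 were counted. For those labelled GFI1 WT it gave 7.74, where 10 were counted. For classical monocytes labelled GFI1 KO it gave 4.69, where 58 were counted. The scaling was set after seeing the data and covers RNA of T, NK and B cells only. A wider set of lymphoid markers, those of T, NK, ILC2, B and plasma cells, was used to pick macrophages with no UMI of any. This left 704 of 2495 and 836 of 4217 alveolar macrophages. Whether macrophages make some of these RNAs themselves was not tested. In the cells left, Gfi1 was at 1.42 CPM (10 UMIs) against 0.344 CPM (3 UMIs), a ratio of 4.12 (1.06 to 23.3). Without doublets the levels were 1.38 and 0.157 CPM. The part of free RNA in these levels was not tested.

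Classical monocytes labelled GFI1 KO often carried RNA of granule genes that belong to neutrophil precursors. Gfi1 was at 1.02 CPM (0.487 to 1.87) in the 1199 cells with none of 8 such markers, at 1.49 CPM (1.04 to 2.06) in the 2359 cells with 1 marker and at 2.06 CPM (1.07 to 3.61) in the 462 cells with at least 2. The 3 intervals overlapped, and the cells with more markers were also deeper, so no order is read from these steps. Of the 290 classical monocytes labelled GFI1 WT, 250 had none of the markers, 39 had 1 and 1 had at least 2, so that this gate held unlike cells in the libraries. In endothelial cells labelled GFI1 KO, both Gfi1 UMIs lay in 1 cell called a doublet, and the ratio of 6.41 there had an interval from 0.674 to 31.

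The class mix hid these differences. Over the 8 classes with at least 50 cells in both libraries, Gfi1 was at 3.57 CPM labelled GFI1 KO and 3.89 CPM labelled GFI1 WT, a ratio of 0.918. With the class shares of the library labelled GFI1 WT put in place, the level labelled GFI1 KO became 8.34 CPM and the ratio 2.14. With the shares of the library labelled GFI1 KO the ratio was 3.09. That ratio counts the classical monocytes labelled GFI1 WT, with 0 UMIs in 290 cells, as a level of 0, although 3 UMIs would have meant 1.44 CPM. It gives much weight to this class, and no ratio with another level there was computed. Rcor1 went from 0.629 to 1.04 at the GFI1 WT mix and 0.900 at the GFI1 KO mix, but without the endothelial cell with the most Rcor1 UMIs in each library the ratio at the GFI1 WT mix was 0.928. Kdm1a went from 0.871 to 1.04 and 0.940. The ratio of Hdac1 went from 0.897 to 1.03 and 1.11. That of Gfi1b went from 1.34 to 1.10 and 1.58, where the last again counts classical monocytes labelled GFI1 WT as a level of 0.

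Gfi1b was nearly absent from lymphoid cells and lay in myeloid cells, some classes of which also held Gfi1 under the GFI1 KO label. Its level stood highest in basophils, rare granulocytes that share the high-affinity IgE receptor with mast cells, with 3 UMIs in 18 cells labelled GFI1 KO (39.9 CPM, 8.23 to 117) and 1 UMI in 14 cells labelled GFI1 WT (15.9 CPM, 0.402 to 88.4). These intervals overlapped those of nonclassical monocytes, which had 8.74 CPM (5.76 to 12.7; 27 UMIs) and 5.42 CPM (2.88 to 9.27; 13 UMIs), a ratio of 1.61 (0.804 to 3.40). In this class 7.0% of genes were at least 1.5-fold higher under the GFI1 KO label and 8.82% at least 1.5-fold lower. Alveolar macrophages had 1.28 CPM in both libraries, from 37 and 68 UMIs, with a ratio of 1.00 (0.651 to 1.51). Classical monocytes labelled GFI1 KO had 0.528 CPM and those labelled GFI1 WT 0 UMIs, where 3 UMIs would have given 1.44 CPM. Over all cells, whose class mix differed, Gfi1b was at 1.23 against 0.752 CPM, a ratio of 1.63 (1.24 to 2.15). In that comparison 7.16% of genes were at least 1.5-fold higher under the GFI1 KO label.

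Lymphoid cells held 1 Gfi1b UMI labelled GFI1 KO and 2 labelled GFI1 WT, and structural cells held 0 in both. NK cells had 0 UMIs, which allows up to 0.362 CPM in the library labelled GFI1 WT, and the CD4-type T cells labelled GFI1 KO, where Gfi1 was high, also had 0 (up to 6.28 CPM). Of the cells labelled GFI1 KO, 302 held Gfi1, 104 held Gfi1b and 0 held both, and of those labelled GFI1 WT 415, 94 and 1 did. So few cells held either gene that few with both would be seen in any case, and no exclusion is read from these counts. Of the UMIs of both factors in myeloid cells, Gfi1 made up 57.0% (49.8 to 64.0) labelled GFI1 KO and 14.3% (8.04 to 22.8) labelled GFI1 WT. These pooled shares mix myeloid classes that differed in number between the libraries. Within alveolar macrophages Gfi1 made up 53.2% (41.6 to 64.5) and 12.8% (6.32 to 22.3). Within nonclassical monocytes it made up 27.0% (13.8 to 44.1) and 0% (0 to 24.7), intervals that overlapped. In lymphoid cells it made up 99.5% in each library. Few molecules per cell were captured for either gene, so a cell without a UMI is not a cell without the RNA.

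The 5 partners were present in every large class and far more evenly spread. The plot of their levels by class shows this.

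**Figure D3:**
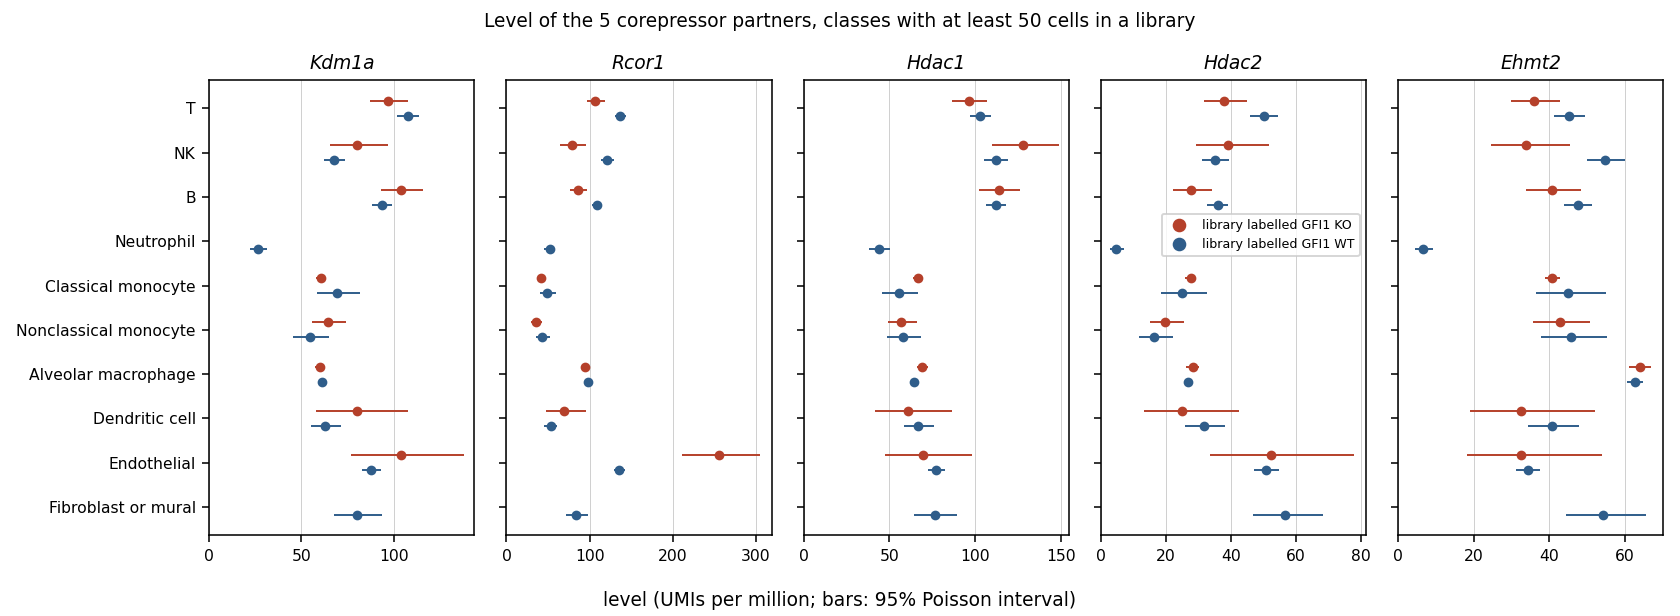
Level in CPM of Kdm1a, Rcor1, Hdac1, Hdac2 and Ehmt2 for the larger classes, where the library has at least 50 cells, with bars for the 95% Poisson interval. Neutrophils labelled GFI1 WT sit lowest for Kdm1a, Hdac2 and Ehmt2, and Rcor1 is low in both kinds of monocytes.

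Kdm1a, the demethylase, ranged from 54.6 CPM in nonclassical monocytes to 108 CPM in T cells among the 8 large classes labelled GFI1 WT. Its ratio between the libraries lay between 0.872 and 1.27 over these classes, and each of the 8 intervals included 1. In T cells it was at 97.0 CPM against 108 CPM (ratio 0.898, 0.794 to 1.01), and in alveolar macrophages at 60.1 against 61.3 CPM (0.981, 0.925 to 1.04). Neutrophils labelled GFI1 WT had only 26.3 CPM.

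Rcor1, the scaffold that holds KDM1A and the deacetylases together, was lower under the GFI1 KO label in the 3 lymphoid classes. T cells had 107 against 137 CPM (ratio 0.781, 0.696 to 0.875), NK cells 79.1 against 121 CPM (0.653, 0.528 to 0.80) and B cells 85.9 against 109 CPM (0.790, 0.692 to 0.899). Only in NK cells did this reach 1.5-fold, where 19.8% of genes were at least 1.5-fold lower. CD4-type T cells had 83.8 against 143 CPM, a ratio of 0.585 (0.411 to 0.811). In this subset 17.3% of genes were at least 1.5-fold lower. In alveolar macrophages Rcor1 was at 94.9 and 98.4 CPM (0.964, 0.920 to 1.01). Of the 8 large classes monocytes had the least, with 41.2 and 48.8 CPM in classical and 35.6 and 43.3 CPM in nonclassical ones.

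Rcor1 UMIs were unevenly shared between cells, which a counting interval does not cover. In 3 cells labelled GFI1 KO and 12 labelled GFI1 WT at least 10 Rcor1 UMIs were found, with 46 and 41 in the highest, whereas no cell held 10 UMIs of Kdm1a, Hdac2 or Ehmt2. In endothelial cells this decided the value. There Rcor1 was at 255 CPM (117 UMIs in 116 cells) labelled GFI1 KO and 135 CPM labelled GFI1 WT, a ratio of 1.88 (1.55 to 2.27), but 46 of the 117 UMIs came from 1 cell called a doublet. Without the highest cell of each library the ratio was 1.19 (0.922 to 1.5), and without doublets 1.11 (0.842 to 1.45). In T, NK and B cells, leaving out the highest cell left ratios of 0.744, 0.630 and 0.802, each with an interval below 1.

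Hdac1 differed little between the libraries. Its ratio ran from 0.900 to 1.2 over the 8 classes, and only that of alveolar macrophages, 1.07 (1.01 to 1.13) at 69.1 against 64.5 CPM, had an interval off 1. B cells had 114 and 112 CPM and NK cells 128 and 112 CPM, the highest levels of the 8 classes, and neutrophils labelled GFI1 WT had 44.0 CPM. Hdac2, its paralog, was lower under the GFI1 KO label in T cells, with 37.9 against 50 CPM (0.759, 0.624 to 0.919), and in B cells, with 27.8 against 35.9 CPM (0.776, 0.611 to 0.974). Neither reached 1.5-fold, a size that 12.1% of genes reached in T cells and 10.6% in B cells. Neutrophils labelled GFI1 WT had 4.68 CPM of Hdac2 from 23 UMIs in 1504 cells.

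Ehmt2, the methyltransferase, was highest of the 8 classes in alveolar macrophages, with 63.9 CPM labelled GFI1 KO and 62.6 CPM labelled GFI1 WT (1.02, 0.965 to 1.08). NK cells had 33.8 against 54.7 CPM, a ratio of 0.618 (0.442 to 0.843), and T cells 35.9 against 45.2 CPM (0.796, 0.650 to 0.969). In NK cells Rcor1 and Ehmt2 were thus both at least 1.5-fold lower, where 19.8% of all genes were lower by this size. Kdm1a (79.9 against 67.8 CPM), Hdac1 and Hdac2 (39.2 against 35.1 CPM) had ratios above 1 there with intervals that included 1. Endothelial cells had 32.6 and 34.2 CPM of Ehmt2, and neutrophils labelled GFI1 WT 6.51 CPM.

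**Figure D4:**
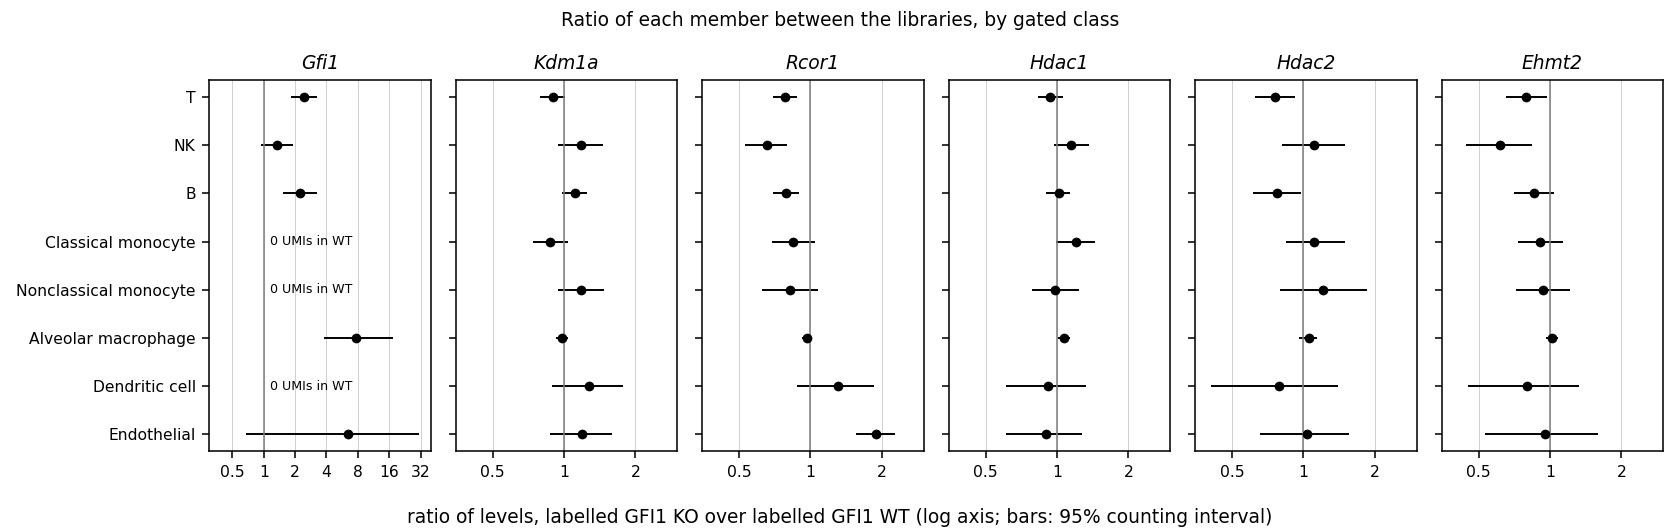
Ratio of the level labelled GFI1 KO to that labelled GFI1 WT on a log axis for 6 of the 7 genes in the 8 classes with at least 50 cells in both libraries, with bars for the 95% counting interval and a line at 1. The Gfi1 ratio lies above 1 in 5 classes, with intervals that include 1 in NK and endothelial cells and 0 UMIs labelled GFI1 WT in 3 classes, and the partners gather near 1 apart from Rcor1 and Ehmt2 in NK cells and Rcor1 in endothelial cells, where 1 cell held 46 of 117 UMIs.

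Over the 5 partners and 8 classes, 1 ratio was at least 1.5-fold higher, that of Rcor1 in endothelial cells, and 2 were at least 1.5-fold lower, those of Rcor1 and Ehmt2 in NK cells, where 19.8% of all genes were lower by this size. For Gfi1, the 3 ratios of T cells, B cells and alveolar macrophages were at least 1.5-fold higher and that of NK cells was not, leaving aside endothelial cells with 2 against 9 UMIs. The share of all genes at least 1.5-fold higher ran from 1.47% in alveolar macrophages to 17.7% in classical monocytes, and endothelial cells had 11.1%. The share at least 1.5-fold lower ran from 8.82% in nonclassical monocytes to 22.3% in endothelial cells. The totals of all cells gave another picture for the partners than the classes did. Rcor1 was at 64.8 CPM against 101 CPM over all cells, a ratio of 0.641 where 38.1% of genes were at least 1.5-fold lower and 7.16% at least 1.5-fold higher. The median gene stood at 0.775 in that comparison, against 0.984 in T cells and 0.990 in alveolar macrophages.

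The balance of the 2 deacetylases varied more between the large classes than between the labels within a large class. HDAC1 and HDAC2 are close relatives that can stand in for each other in the same complexes. Of the UMIs of both genes, Hdac1 gave 90.4% (85.9 to 93.8) in neutrophils labelled GFI1 WT, 80.4% and 75.8% in B cells labelled GFI1 KO and GFI1 WT, and 76.6% and 76.0% in NK cells. Alveolar macrophages had 71.0% (69.3 to 72.7) and 70.5% (69.2 to 71.8). In endothelial cells labelled GFI1 WT the share was 60.4% (58.0 to 62.7), and in fibroblasts or mural cells 57.4% (51.2 to 63.5). T cells had 71.8% (67.5 to 75.8) labelled GFI1 KO and 67.3% (65.0 to 69.5) labelled GFI1 WT, intervals that overlapped. Those of B cells (76.4 to 83.9 and 73.8 to 77.6) overlapped too. Ungated cells had 75.0% (72.3 to 77.5) labelled GFI1 KO and 70.1% (67.9 to 72.1) labelled GFI1 WT, which did not overlap.

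**Figure D5:**
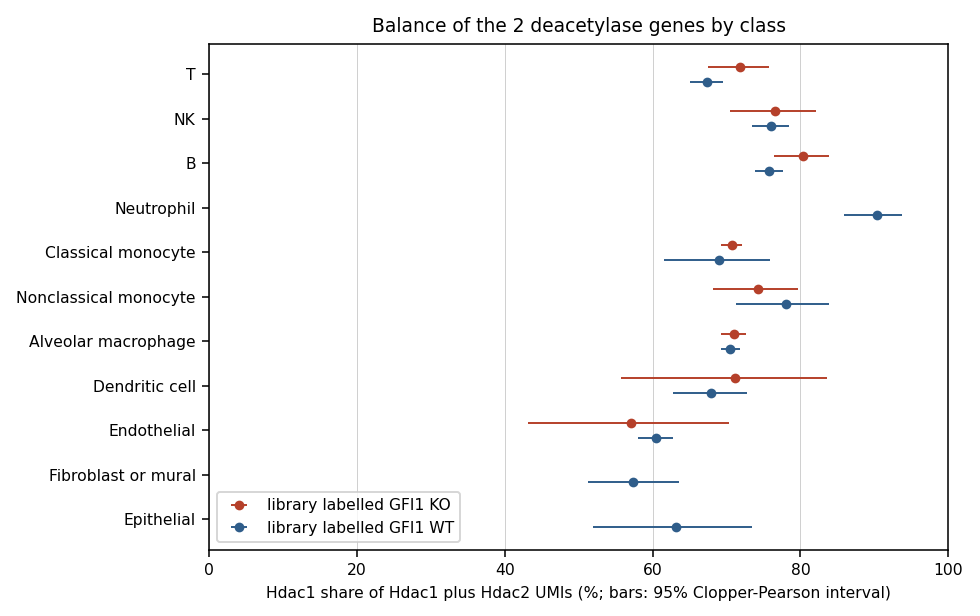
Hdac1 as a percentage of the UMIs of Hdac1 and Hdac2 for the larger classes, where the library has at least 50 cells, with bars for the 95% Clopper-Pearson interval. Neutrophils labelled GFI1 WT reach 90.4%, and endothelial cells and fibroblasts or mural cells labelled GFI1 WT sit near 60.4% and 57.4%.

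Dividing cells held more Hdac1 and Ehmt2, which encode histone-modifying enzymes. Cells with at least 3 of 8 cell cycle markers were set against cells of the same class and library with none, in 8 class and library pairs. Hdac1 was higher in dividing cells in 8 of 8 pairs, by 1.2 to 1.87-fold, with 5 intervals above 1, and Ehmt2 in 8 of 8, by 1.26 to 2.61-fold, also with 5. In alveolar macrophages labelled GFI1 WT, Hdac1 was at 85.2 CPM in 230 dividing cells and 62.3 CPM in 3175 others (1.37, 1.22 to 1.53). In T cells labelled GFI1 WT, Ehmt2 was at 104 CPM in 70 dividing cells and 39.7 CPM in 2113 others (2.61, 2.07 to 3.27). Hdac2 was higher in 7 of 8 pairs, with 3 intervals above 1. The shares of all genes higher or lower in dividing cells were not computed, so these counts are not read as particular to the 7 genes.

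Rcor1 was lower in dividing cells in 7 of 8 pairs, with 3 intervals below 1. How many of all genes were lower in dividing cells was not computed, so this direction is not read as particular to Rcor1. In T cells labelled GFI1 KO it was at 44.9 CPM in 35 dividing cells and 116 CPM in 590 others (0.387, 0.222 to 0.630), and in T cells labelled GFI1 WT at 102 and 142 CPM (0.718, 0.578 to 0.883). Kdm1a had ratios of 0.760 to 1.39 around a median of 0.972. Gfi1 was lower in dividing NK cells labelled GFI1 KO, at 15.3 CPM from 5 UMIs against 43.3 CPM from 33 (0.355, 0.108 to 0.914), and at 29.1 CPM from 11 UMIs against 25.6 CPM in T cells of the same library (1.14, 0.541 to 2.17).

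Other genes of the same machinery were read from lists. Over all genes, 1.47% to 17.7% were at least 1.5-fold higher and 8.82% to 22.3% at least 1.5-fold lower in the 8 classes. Few members of lists this short would thus pass in any case, and no stability is read from low counts. Of 12 further genes tied to CoREST, at most 1 per direction passed 1.5-fold in any of the 8 classes. Zmym2, a zinc finger protein of that complex, was at 72.5 against 111 CPM in T cells (ratio 0.654, 0.569 to 0.749), 53.7 against 103 CPM in NK cells (0.523, 0.404 to 0.668) and 45.7 against 112 CPM in endothelial cells (0.407, 0.251 to 0.625). Phf21a, which reads unmethylated histone H3, was at 332 against 406 CPM in T cells (0.818) and 115 against 127 CPM in alveolar macrophages (0.904). Of 11 NuRD genes, which form another deacetylase complex around HDAC1 and HDAC2, 1 was higher and 1 lower in NK cells by this size, Mbd3 (91.4 against 57.8 CPM, ratio 1.58) and Mta3 (135 against 262 CPM, ratio 0.516), and 1 was lower in dendritic cells. In T cells, B cells, monocytes, alveolar macrophages and endothelial cells 0 of the 11 passed. Of 7 genes for other proteins that bind GFI1, 3 were at least 1.5-fold higher and 1 lower among the 5 measured in NK cells, where 16% of all genes were higher and 19.8% lower by this size. Cbfa2t3, a corepressor of the ETO family, was at 2.28 against 11.7 CPM in T cells (0.195, 0.0826 to 0.396) and at 81.4 against 35.9 CPM in NK cells (2.27, 1.80 to 2.84). The median ratio of these 3 lists lay between 0.812 and 1.01 in T cells, where that of all genes was 0.984. In alveolar macrophages their members were within 1.5-fold without exception, where only 1.47% of all genes were higher and 9.88% lower by this size.

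Of 18 genes held to be GFI1 targets, which the factor would silence, members lay past 1.5-fold in both directions in most classes. In T cells 3 of 14 with enough UMIs were higher and 4 lower, in NK cells 3 and 4 of 13, in B cells 2 and 5 of 15, in classical monocytes 2 and 7 of 16, and in endothelial cells 4 and 4 of 16. Alveolar macrophages had 0 higher and 5 lower of 16, where 9.88% of all genes were lower by this size, and dendritic cells 0 and 4 of 13, where 11.5% of all genes were higher and 16.4% lower. Over all genes the shares higher and lower by this size were 10.1% and 12.1% in T cells, 16% and 19.8% in NK cells, 4.86% and 10.6% in B cells, 17.7% and 12.6% in classical monocytes and 11.1% and 22.3% in endothelial cells. Maf, a transcription factor of interleukin-17 and other T cell programmes, was at 266 against 105 CPM in T cells (2.55, 2.33 to 2.78) and 126 against 54.3 CPM in NK cells (2.32, 1.93 to 2.78) but 56.9 against 131 CPM in classical monocytes (0.434, 0.383 to 0.494). Elane, the neutrophil elastase, had 669 UMIs in classical monocytes labelled GFI1 KO and 0 in those labelled GFI1 WT. It is itself among the granule markers, which few classical monocytes labelled GFI1 WT carried, so that Maf and Elane are compared there between unlike cells. Csf1r, the receptor for the macrophage growth factor, was at 37.8 against 12 CPM in B cells (3.16, 2.47 to 4.02). It was also higher in endothelial cells, at 71.8 against 10.2 CPM, and the library labelled GFI1 KO held 4020 classical monocytes against 290. The part of free RNA or doublets from myeloid cells in these Csf1r values was not tested. Csf1, for the ligand of this receptor, was at 6.85 against 1.78 CPM in T cells (3.84, 2.03 to 7.32) and 0.759 against 4.13 CPM in alveolar macrophages (0.184, 0.113 to 0.285). Summed markers of T, NK and B cells were also lower in alveolar macrophages labelled GFI1 KO, at 12.6, 5.07 and 41.3 against 20.2, 34.2 and 65.9 CPM. The part of free RNA in the lower target genes of alveolar macrophages was not tested. The list was put together with earlier results of these data known. It includes Maf, which the study of these data itself proposes as a direct target, in part from higher Maf in its single-cell data without GFI1. The counts of higher targets in T and NK cells include Maf, which is no separate support there.

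The genes whose levels most resembled those of Gfi1 over 22 points, each a class of at least 50 cells in 1 library, were Pglyrp2 (Pearson r = 0.90 on log2(CPM + 1)), Nup50 and I730030J21Rik (both 0.88), D630008O14Rik (0.87) and Lax1 (0.86), out of 13418 genes. For Gfi1b they were Gfpt1 (0.86), Tmem51os1 (0.83), Plagl2 and Ccdc192 (both 0.82) and Cyp2ab1 (0.80). Among the partners, Hdac1 was nearest to Gfi1 with r = 0.70, followed by Kdm1a with 0.48 and Rcor1 with 0.43, and Gfi1b had r = -0.22 with Gfi1. The points share libraries, depth and lineage, so that these values are descriptions. Ranked by Spearman's rho instead, 0 of the 5 genes for Gfi1 and 1 of the 5 for Gfi1b stayed on the list.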

How the data were processed

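Single-cell RNA of live-sorted lung cells was read with 10x Genomics 3′ chemistry in 1 library labelled GFI1 KO and 1 labelled GFI1 WT. The authors deposited raw UMI counts per gene and called cell, made with Cell Ranger 9.0.1 on GRCm39 according to the submitters' processing notes, with no normalization. Gene UMIs totalled 116825535 and 162599284. As in the study's methods, cells needed 500 UMIs, 200 genes and at most 20% of UMIs from mitochondrial genes, and ribosomal, mitochondrial and Gm- genes (9538, with 19.0% and 16.5% of UMIs) were left out of totals. The 18 antibody tags were not used for levels. UMIs were summed per gated class and divided by the class total (CPM).

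Levels have exact Poisson intervals, ratios exact conditional binomial intervals and shares Clopper-Pearson intervals, all at 95% and for counting error only. A count of 0 is given the limit of 3 counts. Shares of cells were taken from cells thinned once to 1500 UMIs, leaving out shallower cells. These were 1 and 6 T cells, 5 and 23 NK cells and 10 and 13 B cells (labelled GFI1 KO and GFI1 WT). Alveolar macrophages lost 1 and 6 cells, and endothelial cells 11 and 118. Ratios against all genes used genes with at least 30 UMIs in both libraries together. Doublets stayed in; Scrublet called 3.30% and 5.88% of cells, and leaving them out was an alternative, as were other gate settings, clusters, other totals and other cell filters. Python 3.11.15, scipy 1.17.1, scanpy 1.11.5 and R 4.3.3 were used.

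The 7 genes, gene lists and markers were chosen with earlier results of these data known, and the gate's thresholds, the Gfi1 level at the marker ratio, the Foxp3 split and the limit of 10 UMIs per cell were set after seeing the data. From each list, up to 4 genes per class were candidates for naming, those with the interval farthest from a ratio of 1, and the 5 most alike genes by Pearson r among genes with at least 200 UMIs. With 1 library per label, no test was made.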

Additional observations from a re-analysis of the deposited data

Results flagged for a closer look

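Rcor1 stood on opposite sides of 1 in different classes under the same contrast, with counting intervals off 1: its ratio of GFI1 KO to GFI1 WT was 1.88 in endothelial cells and 0.781, 0.653 and 0.790 in T, NK and B cells. The difference between the classes was not tested, and the endothelial value rests on 1 cell with 46 UMIs.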

How the results depend on the processing

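Of 508 log2 ratios recomputed under alternatives, 494 stayed within the reported counting interval (for the class mix, within 1.2-fold). The sign differed from that reported in 20, of which 18 belong to ratios whose reported interval included 1 and 2 to ratios whose interval did not. On the log2 scale Gfi1 ran from 0.89 to 1.37 in T cells (reported 1.27), 1.07 to 1.19 in B cells (1.16), 0.29 to 0.69 in NK cells (0.43), 2.48 to 3.0 in CD4-type T cells (2.68) and 2.04 to 3.14 in alveolar macrophages (2.95), and at the class mix of the library labelled GFI1 WT from 0.96 to 1.10. Rcor1 in endothelial cells (0.91) fell to 0.10 with the gate on thinned cells, 0.16 without doublets, 0.09 with clusters and, in alternatives chosen after seeing the data, 0.25 without the cell with the most UMIs and 0.38 in cells without a lymphoid marker UMI. In such cells Gfi1b in alveolar macrophages was 1.18 (reported 0.00; 11 and 6 UMIs) and Hdac1 there -0.03 (reported 0.10). With clusters, whose T clusters also held 152 and 210 cells gated as alveolar macrophages, Ehmt2 in T cells was 0.03 (reported -0.33). With at least 100 UMIs per gene instead of 30, 2.73% instead of 4.86% of genes in B cells and 0.722% instead of 1.47% in alveolar macrophages were at least 1.5-fold higher. No paired analysis was possible because each label has 1 library. Depth limits Gfi1 in classical monocytes labelled GFI1 WT, where 290 cells gave 0 UMIs.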

Other observations

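The cells that no gate took, 1305 labelled GFI1 KO and 1762 labelled GFI1 WT, held 22.4% and 14.7% of the Gfi1b UMIs of their libraries. Gfi1b was at 2.05 CPM and 0.850 CPM in them, a ratio of 2.41 (1.23 to 4.89), and Rcor1 at 52.5 and 88.8 CPM, a ratio of 0.591 (0.539 to 0.648). Which classes these cells belong to was not settled. In endothelial cells 2 genes of myeloid cells were higher under the GFI1 KO label, Csf1r (71.8 against 10.2 CPM, ratio 7.05) and Spi1 (60.9 against 24.7 CPM, ratio 2.47). The part of free RNA or doublets in these values was not tested.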
